A study of Homo sapiens with 6 samples.

Results

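The genes described here are 10 members of the NF-kappaB system, taken by gene symbol from a count table of 32192 genes. They are the 5 subunits RELA, RELB, REL, NFKB1 and NFKB2, the inhibitors NFKBIA, NFKBIB, NFKBIE and NFKBIZ, and TNFAIP3, which codes for the enzyme A20. NF-kappaB is a redox target of APEX1, also called Ref-1, the protein overexpressed in this study. RNA was sequenced from A549 cells, an established line from a human lung adenocarcinoma, in 6 libraries. The cells of 3 libraries were transfected with a plasmid that carries the APEX1 coding sequence fused to a FLAG tag (APEX1-OE) and those of 3 libraries with the control plasmid (Ctrl), so that both groups carry transfected DNA. The plasmid backbone was pIRES-hrGFP-1a, which also codes for a green fluorescent protein. Transfection was transient, and no source used here says whether the replicates came from separate cultures, so the tests measure the spread between these libraries.

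NF-kappaB subunits bind DNA as pairs, and in resting cells inhibitors hold most of these pairs in the cytoplasm. Signals from cytokine receptors switch on a kinase complex that marks the inhibitors for destruction, and the freed pairs enter the nucleus. Among the genes they switch on are their own subunits and inhibitors, which form feedback loops. APEX1 is known for the repair of abasic sites in DNA and, separately, for keeping a cysteine in the DNA-binding part of NF-kappaB subunits reduced. That second role acts on proteins, which RNA levels do not measure.

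All 10 members passed the filter on low counts, as did 16971 genes in all. Library totals ran from 28131955 to 41009197 counts. APEX1 itself stood at 617.50, 680.30 and 768.23 FPKM in APEX1-OE replicates 1 to 3 and at 128.84, 126.26 and 123.84 FPKM in Ctrl. Its log2 fold change was 2.42 (SE 0.171, edgeR adjusted p = 0.00809), where edgeR adjusted p stands for the quasi-likelihood test adjusted over all genes. The epithelial keratins KRT8 and KRT18 stood at 2558 FPKM or more and 2011 FPKM or more in every library, whereas the epithelial surface marker EPCAM stood at no more than 0.52 FPKM. The T cell marker CD3E and the endothelial marker VWF did not exceed 0.02 FPKM, and the general leukocyte marker PTPRC had 1 count in all 6 libraries together. Of the myeloid markers, LYZ did not exceed 0.05 FPKM, while CD14 and CD68 reached 3.18 and 1.49 FPKM. FPKM are fragments per kilobase of transcript, scaled for the number of mapped fragments, so they allow for length when genes are compared. They do not adjust for GC content, which is taken up below. The libraries also fell into sets that cut across the conditions. On log2 CPM (counts scaled by library total and by TMM normalization), 72.6% of the variance lay on the first principal component. It set APEX1-OE replicate 1 with Ctrl replicates 1 and 2, here called the first set, against APEX1-OE replicates 2 and 3 with Ctrl replicate 3, the second set. Since these sets were found in the same counts, differences between them are described without a test.

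Because the members include known targets of NF-kappaB, their promoters were searched for the letters it binds. In RefSeq promoters on GRCh38.p14, which run from 250 bases before to 50 bases after each start site, the NF-kappaB consensus called the kappaB site was searched on both strands and overlapping matches were joined. At least 1 such site was found for 7 of the 8 members with a promoter in the table, against 7.09% of all 27305 gene symbols. The members had 1.75 promoters each on average and all symbols 1.29, and these genes are known as NF-kappaB targets, so the share is a description of the list. The member without a site was RELA, whereas RELB and NFKBIE had no promoter in the table and were not searched. The sites below are shown because they are the stretches that matched the binding consensus of the members' own products, with the kappaB match in capitals and the gene's strand read 5′ to 3′.
REL, chr2:60881518-60881546, plus strand: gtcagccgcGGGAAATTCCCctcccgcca
NFKB1, chr4:102501300-102501329, plus strand: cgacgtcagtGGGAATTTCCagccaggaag
NFKB2, chr10:102394462-102394490, plus strand: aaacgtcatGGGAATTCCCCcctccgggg
NFKB2, chr10:102395674-102395703, plus strand: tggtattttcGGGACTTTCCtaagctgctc
NFKBIA, chr14:35404811-35404840, minus strand: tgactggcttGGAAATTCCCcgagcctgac
NFKBIB, chr19:38899932-38899960, plus strand: ggcgtggtgGGGAATTTCCCgcagggcgg
NFKBIZ, chr3:101827757-101827786, plus strand: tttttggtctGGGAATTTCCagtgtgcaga
TNFAIP3, chr6:137867182-137867211, plus strand: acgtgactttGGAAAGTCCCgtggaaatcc
The REL, NFKB1 and NFKBIB sites begin 47, 49 and 28 bases before a start site, the NFKBIA site 81 bases before and the NFKBIZ site shown 223 bases before. NFKBIZ had another site in a second promoter, 239 bases before that start. NFKB2 had 4 sites, spread over 2 of its 3 promoters, and TNFAIP3 had a further site that begins 55 bases before its start. Of the pathway genes outside the members, 9 of 23 textbook target genes with a promoter, 6 of 16 ubiquitin enzymes and brakes, 1 of 9 kinases and 1 of 17 receptors and adaptors had a site. A match is a stretch of letters and shows no binding.

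The members covered more than 2 orders of magnitude in level. NFKBIA (ENSG00000100906.10, chromosome 14, 35401079 to 35404749, minus strand), which codes for IkappaB-alpha, was the highest at 69.7 ± 2.68 FPKM (SD over the 6 libraries), and it stood above RELA in all 6. RELA, NFKB2 and NFKBIB followed at 37.6 ± 8.42, 35.1 ± 7.56 and 33.4 ± 4.38 FPKM. RELA was above NFKB2 in 6 of 6 libraries and NFKB2 above NFKBIB in 4 of 6, and the ranges of neighbours overlapped. RELB stood at 25.0 ± 6.53 and TNFAIP3 at 17.5 ± 3.76 FPKM, with overlapping ranges and RELB higher in 4 of 6 libraries. NFKBIE at 7.68 ± 1.08, NFKB1 at 5.12 ± 1.39 and NFKBIZ at 4.96 ± 1.56 FPKM formed a lower group whose neighbours also overlapped. REL was the lowest at 0.53 ± 0.24 FPKM and never reached the lowest value of NFKBIZ, which was 3.06. Among the subunits, RELA and NFKB2 thus far exceeded NFKB1 and REL in FPKM, though RELA per NFKB1 ran from 4.27 to 15.9 over the libraries.

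**Figure D1:**
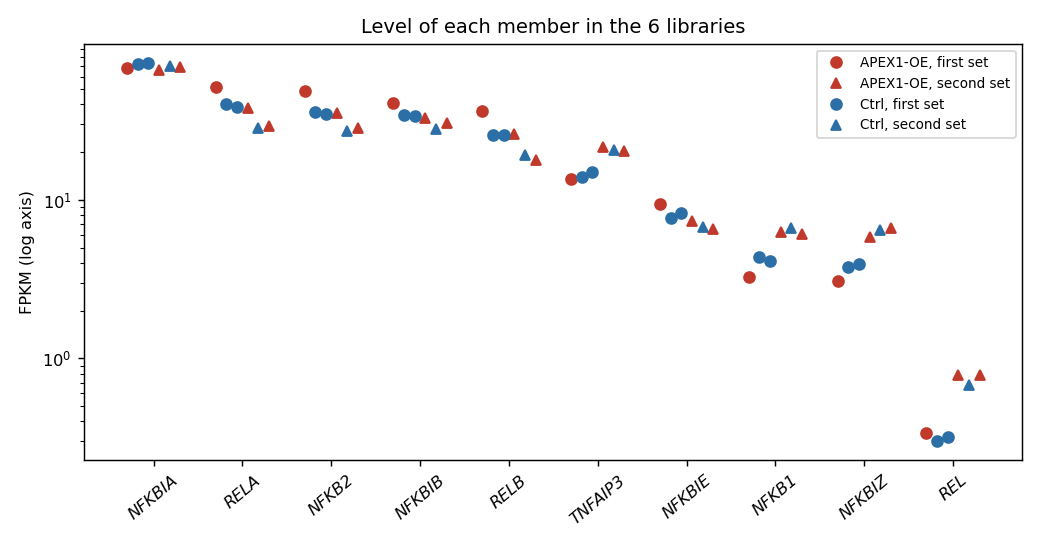
FPKM of each member (log axis) in the 6 libraries, with color for the condition and shape for the set of libraries, and members ordered by their mean. NFKBIA is the highest and varies least, and for REL, NFKB1, NFKBIZ and TNFAIP3 the triangles of the second set all lie above the circles of the first.

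RELA (ENSG00000173039.18, chromosome 11, 65653599 to 65663090, minus strand) codes for p65, the main activating subunit. It stood at 51.38, 37.99 and 29.10 FPKM in replicates 1, 2 and 3 of APEX1-OE and at 40.25, 38.40 and 28.39 FPKM in those of Ctrl. The groups overlapped almost entirely, with APEX1-OE replicate 1 the highest library and Ctrl replicate 3 the lowest. The mean was 39.5 ± 11.2 FPKM in APEX1-OE and 35.7 ± 6.38 FPKM in Ctrl (n = 3 each, SD). The log2 fold change was 0.15 (SE 0.315, edgeR adjusted p = 1.0), with a 95% interval from -0.57 to 0.88.

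NFKB1 (ENSG00000109320.11, chromosome 4, 102501330 to 102617302, plus strand) codes for p105, which is cut to p50, the usual partner of p65. It stood at 3.24, 6.23 and 6.11 FPKM in APEX1-OE and at 4.34, 4.13 and 6.65 FPKM in Ctrl, in the order of the replicates. Here the ends of the order were the reverse of RELA, with APEX1-OE replicate 1 the lowest and Ctrl replicate 3 the highest. The log2 fold change was 0.014 (SE 0.267, 95% interval -0.60 to 0.63, edgeR adjusted p = 1.0). REL (ENSG00000162924.13, chromosome 2, 60881491 to 60931612, plus strand), the subunit best known from lymphocytes, had 138, 434 and 371 counts in APEX1-OE and 116, 151 and 346 counts in Ctrl. That was 0.34, 0.78 and 0.78 FPKM against 0.30, 0.32 and 0.68 FPKM, and the groups overlapped. Its log2 fold change of 0.52 was the largest among the members and also the least certain (SE 0.381, 95% interval -0.36 to 1.40, edgeR adjusted p = 1.0). It was 0.21 with the set of libraries as a term.

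RELB and NFKB2 form the pair of the non-canonical pathway, in which p100, the NFKB2 product, is cut to p52. RELB (ENSG00000104856.13, chromosome 19, 45001461 to 45038192, plus strand) stood at 36.12, 26.11 and 17.74 FPKM in APEX1-OE and at 25.65, 25.49 and 19.08 FPKM in Ctrl. NFKB2 (ENSG00000077150.17, chromosome 10, 102394110 to 102402524, plus strand) stood at 48.43, 35.57 and 28.59 FPKM in APEX1-OE and at 36.01, 35.02 and 27.05 FPKM in Ctrl. Both genes had their highest value in APEX1-OE replicate 1, and the other 2 APEX1-OE libraries lay among or near the Ctrl libraries. The log2 fold changes were 0.20 for RELB (SE 0.343, 95% interval -0.59 to 0.99) and 0.21 for NFKB2 (SE 0.300, 95% interval -0.49 to 0.90), and the edgeR adjusted p was 1.0 for each. The pair moved together over the libraries, with 1.34 to 1.61 FPKM of NFKB2 for each FPKM of RELB. This was not particular to the pair, since RELA was the member nearest in profile to each of them, as given below.

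NFKBIA was the member with the steadiest level. It stood at 68.00, 65.70 and 69.29 FPKM in APEX1-OE and at 71.88, 73.14 and 70.24 FPKM in Ctrl. Every APEX1-OE library lay below every Ctrl library, and the means were 67.7 ± 1.82 and 71.8 ± 1.45 FPKM (SD, n = 3 each), a ratio of 0.943 (two-sided p = 0.1 by exact permutation, and 3 libraries against 3 allow no smaller p). NFKBIA was the only member of the 10 without overlap in FPKM, and 2.17% of the 11629 genes with a mean of at least 1 FPKM showed none. The separation was lost on other scales: in CPM after TMM normalization, edgeR's scaling for library composition, the groups overlapped, as they did with FPKM rescaled to the same sum in each library. The log2 fold change was -0.10 (SE 0.181, 95% interval -0.51 to 0.32, edgeR adjusted p = 1.0).

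The other inhibitors overlapped between the groups. NFKBIB (ENSG00000104825.16, chromosome 19, 38899700 to 38908893, plus strand), which codes for IkappaB-beta, stood at 40.98, 32.85 and 30.51 FPKM in APEX1-OE and at 34.49, 33.79 and 28.06 FPKM in Ctrl. NFKBIE (ENSG00000146232.14, chromosome 6, 44258166 to 44265788, minus strand), which codes for IkappaB-epsilon, stood at 9.47, 7.35 and 6.54 FPKM in APEX1-OE and at 7.65, 8.27 and 6.77 FPKM in Ctrl. Both were highest in APEX1-OE replicate 1, as RELA was. NFKBIZ (ENSG00000144802.11, chromosome 3, 101827991 to 101861022, plus strand), which codes for a nuclear IkappaB that modifies transcription, stood at 3.06, 5.85 and 6.68 FPKM in APEX1-OE and at 3.76, 3.92 and 6.49 FPKM in Ctrl. TNFAIP3 (ENSG00000118503.14, chromosome 6, 137867214 to 137883314, plus strand), whose product A20 removes ubiquitin chains that the pathway needs, stood at 13.46, 21.64 and 20.29 FPKM in APEX1-OE and at 13.92, 14.96 and 20.71 FPKM in Ctrl. For both, as for NFKB1, APEX1-OE replicate 1 was the lowest library and the 3 lowest values belonged to the first set. The log2 fold changes were 0.11 for NFKBIB, 0.044 for NFKBIE, 0.10 for NFKBIZ and 0.14 for TNFAIP3, with SE of 0.248, 0.274, 0.299 and 0.210 and edgeR adjusted p of 1.0 for each.

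In the comparison of APEX1-OE with Ctrl, edgeR's quasi-likelihood test called 0 of the 10 members at an adjusted p under 0.05, against 0.00589% of all genes, which was APEX1 alone. No member reached an unadjusted p under 0.05, against 0.695% of all genes, and DESeq2 and limma-voom also called 0 members. The fold changes were above 0 for 9 of the 10 members and for 57.5% of all genes tested. Their median was 0.12, beside 0.033 over all genes. The sign rested in part on single libraries: without APEX1-OE replicate 1 the fold changes of RELA, RELB, NFKB2, NFKBIB and NFKBIE were below 0, and the median of the members was -0.15. In bulk RNA a change in the share of cells that express a gene and a change in its RNA per cell cannot be told apart. The intervals of RELA, RELB, NFKB1, NFKB2, NFKBIE and NFKBIZ all held the range from -0.486 to 0.63, so changes within it were not excluded at this spread between libraries.

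**Figure D2:**
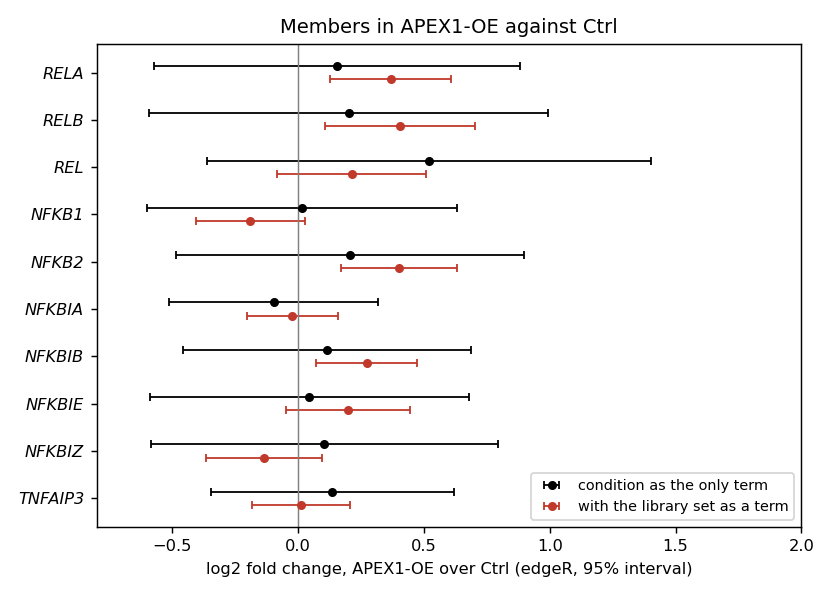
Log2 fold change of each member in APEX1-OE over Ctrl from edgeR with its 95% interval, with the condition as the only term (black) and with the set of libraries as a second term (red). All black intervals cross 0, and the red intervals of RELA, RELB, NFKB2 and NFKBIB lie above 0, though none of them was called after adjustment over all genes. The set was found in the same counts, so the red intervals are a description.

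Most of the spread within each group followed the 2 sets of libraries. In TMM-normalized CPM the sets did not overlap for any of the 10 members, where 66.4% of all tested genes showed no overlap. In FPKM the sets did not overlap for 6 of the 9 members with a mean of at least 1 FPKM, against 71.4% of such genes, nor for REL, whose mean was lower. REL, NFKB1, NFKBIZ and TNFAIP3 were higher in the second set, with ratios of the FPKM means of 2.33, 1.62, 1.77 and 1.48. RELA, NFKBIB and NFKBIE were higher in the first set, with ratios of 1.36, 1.20 and 1.23. RELB and NFKB2 also had the higher mean in the first set, at ratios of 1.39 and 1.31, but APEX1-OE replicate 2 lay within the first set's range for both. The members thus fell into 2 blocks that moved in opposite directions, with NFKBIA nearly level between them in FPKM at a ratio of 1.04. In log2 CPM NFKBIA was 0.24 higher in the first set, without overlap, so its place between the blocks depended on the scale.

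**Figure D3:**
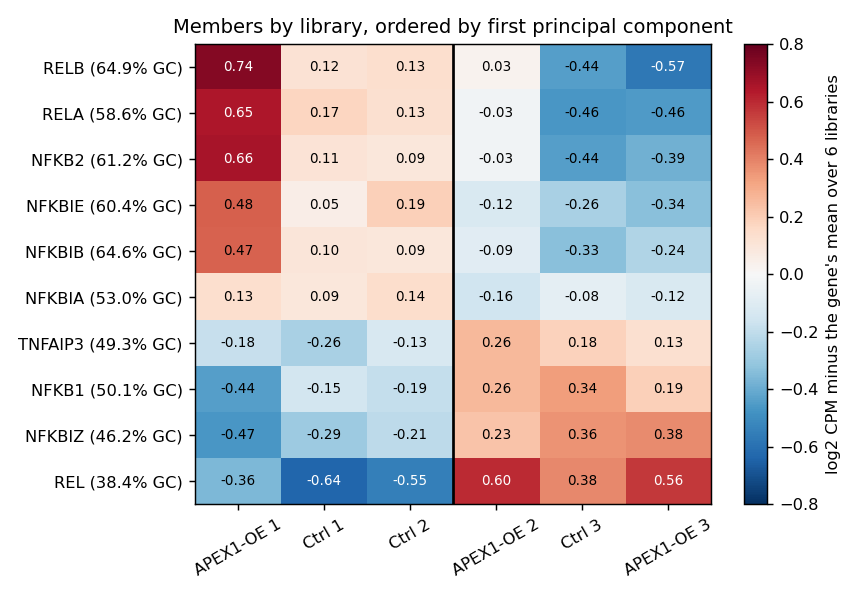
Log2 CPM of each member minus that gene's mean over the 6 libraries, with libraries ordered by the first principal component and the GC content of each gene's canonical transcript beside its name. The black line separates the sets, and the members with GC-rich transcripts are positive on the left whereas TNFAIP3, NFKB1, NFKBIZ and REL are positive on the right.

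The blocks differed in the GC content of their transcripts. RELB, NFKBIB, NFKB2, NFKBIE and RELA have 64.9%, 64.6%, 61.2%, 60.4% and 58.6% GC in the canonical transcript of GENCODE 44. TNFAIP3, NFKB1, NFKBIZ and REL have 49.3%, 50.1%, 46.2% and 38.4%, and NFKBIA lies between the blocks at 53.0%. Over the 16746 tested genes with a GC value, the difference between the sets rose with GC content (Spearman's rho 0.81 across genes, a description, since all genes share the same 6 libraries), and its median was -0.84 on the log2 scale in the lowest of 5 equal bins of genes by GC content and 0.59 in the highest. A spline over all genes on GC content and transcript length gave an expected difference for each member. For REL the measured difference between the sets was -1.03 and the expected one -1.02. For RELB these were 0.66 and 0.63, and for NFKBIA 0.24 and 0.25. NFKB1 was the farthest from its expected value, at -0.52 measured and -0.13 expected, and NFKBIZ followed at -0.64 and -0.37. The other 8 members lay within 0.25 of the expected value.

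**Figure D4:**
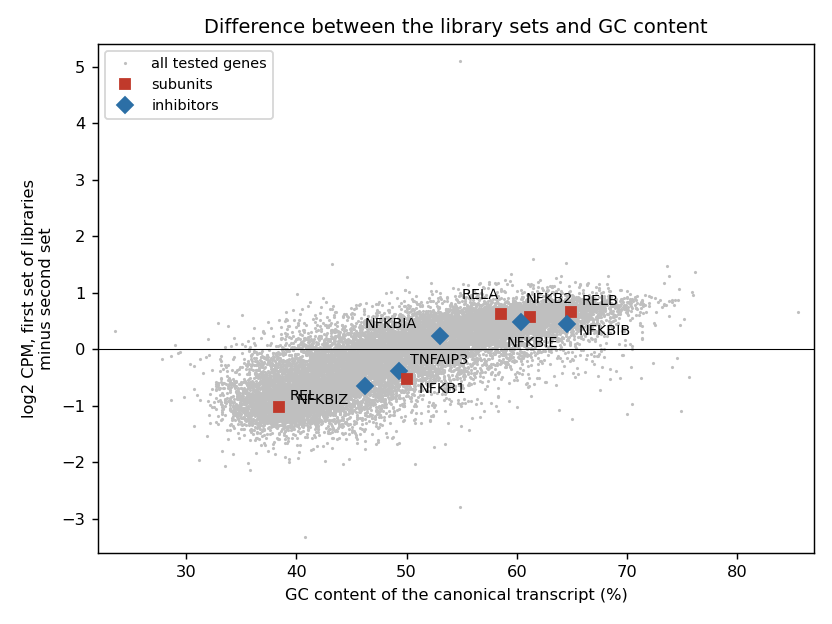
Difference in mean log2 CPM between the first and the second set of libraries against the GC content of the canonical transcript, for all tested genes (grey), the subunits (red squares) and the inhibitors (blue diamonds). The members lie within the cloud of all genes, from REL at -1.03 and 38.4% GC to RELB at 0.66 and 64.9% GC.

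Ratios between members within a library shifted with the sets as well. NFKBIA per RELA, the inhibitor over its main target, was 1.32, 1.73 and 2.38 in replicates 1, 2 and 3 of APEX1-OE, and 1.79, 1.90 and 2.47 in those of Ctrl. The groups overlapped, and the highest values belonged to APEX1-OE replicate 3 and Ctrl replicate 3. RELA per NFKB1 was 15.9, 6.10 and 4.76 in APEX1-OE and 9.27, 9.30 and 4.27 in Ctrl, with APEX1-OE replicate 1 far above the rest. RELA made up 34.7% to 37.8% of the summed FPKM of the 5 subunits and NFKB2 33.0% to 34.7%, which varied little over the libraries. The share of NFKB1 ranged from 2.32% in APEX1-OE replicate 1 to 8.12% in Ctrl replicate 3.

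Within each set the groups can be compared on libraries of the same kind, though with 1 library on a side. In the first set, RELA stood at 51.38 FPKM in APEX1-OE replicate 1 and at a mean of 39.3 in Ctrl replicates 1 and 2, a ratio of 1.31. In the second set it stood at a mean of 33.5 in APEX1-OE replicates 2 and 3 and at 28.39 in Ctrl replicate 3, a ratio of 1.18. By these means RELA, RELB, NFKB2, NFKBIB, NFKBIE and REL were higher in APEX1-OE in both sets. NFKB1, NFKBIZ and NFKBIA were lower in both, and TNFAIP3 differed in direction. In the second set, APEX1-OE replicates 2 and 3 lay on opposite sides of Ctrl replicate 3 for RELB, NFKBIE, NFKBIZ and TNFAIP3. APEX1-OE replicate 3 stood at 17.74, 6.54 and 6.68 FPKM for RELB, NFKBIE and NFKBIZ, against 19.08, 6.77 and 6.49 in Ctrl replicate 3. The ratios in the first and second set were 1.41 and 1.15 for RELB, 1.36 and 1.19 for NFKB2, and 1.20 and 1.13 for NFKBIB. For NFKB1 they were 0.765 and 0.928. The 5 members with GC-rich transcripts were among those with higher means in both sets. REL, whose transcript has the lowest GC content of the 10, had ratios of 1.10 and 1.15, from values of 0.78 FPKM or less. NFKB1 and NFKBIZ, whose transcripts also have less GC than those 5, had lower means in both sets, NFKBIZ at ratios of 0.797 and 0.965. APEX1-OE replicate 1 is also the library farthest out on the first principal component, and the part of this in the ratios of the first set was not tested.

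With the set of libraries as a term in edgeR's quasi-likelihood test, the standard errors of the members lay between 0.0846 and 0.139. The set was found in the same counts that this fit tests. Its standard errors, intervals and p-values are therefore a description. The log2 fold changes were 0.37 for RELA (unadjusted p = 0.00532, adjusted p = 0.356), 0.41 for RELB (unadjusted p = 0.0109, adjusted p = 0.364), 0.40 for NFKB2 (unadjusted p = 0.00217, adjusted p = 0.350) and 0.27 for NFKBIB (unadjusted p = 0.0109, adjusted p = 0.364) in this edgeR fit. These 4 were the members with an unadjusted p under 0.05, all higher, against 8.61% of all genes that were higher at that level. After adjustment over all genes 0 of the 10 members were called in this fit, against 0.0236% of all genes. Of the 10 fold changes 7 were above 0, beside 51.6% of all genes, and those of NFKB1 and NFKBIZ turned negative, at -0.19 and -0.13. The result depended on APEX1-OE replicate 3: without it this fit called RELA, RELB, NFKB2 and NFKBIB as higher, with log2 fold changes of 0.47, 0.55, 0.49 and 0.32 (adjusted p = 7.56e-05, 9.44e-05, 6.25e-05 and 0.00211 from edgeR), but it then called 16.6% of all genes, or 11.3% as higher, and only Ctrl replicate 3 and APEX1-OE replicate 2 represented the second set. When GC content and length entered as an offset beside the set (added once the data had been seen) the fold changes were 0.25 for RELA, 0.23 for RELB, 0.26 for NFKB2 and 0.12 for NFKBIB, with an adjusted p of 0.231, 0.425, 0.150 and 0.433 from edgeR. In that fit RELA and NFKB2 had an unadjusted p under 0.05, both higher, against 7.41% of all genes. With the replicate number as a block instead, edgeR called 0 of the 10 members against 0.0118% of all genes, and REL was the 1 member with an unadjusted p under 0.05, against 3.31% of all genes and 2.83% that were higher.

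The rest of the pathway was read from lists of 76 genes outside the members. With the condition as the only term, edgeR's quasi-likelihood test called 0 of the 19 tested receptors and adaptors, 0 of 10 kinases, 0 of 17 ubiquitin enzymes and brakes, and 0 of 26 target genes. At an unadjusted p under 0.05 there was 1 gene, the target IL1A. Their median log2 fold changes were 0.067, 0.25, 0.071 and 0.10, beside 0.033 over all genes tested. With the set as a term these medians were 0.010, 0.049, 0.073 and 0.12, beside 0.0081 over all genes. In that edgeR fit, a description as above, 4, 1, 4 and 10 genes of these lists had an unadjusted p under 0.05, against 11.6% of all genes. Of these, 3, 1, 4 and 7 were higher, against 8.61% of all genes, so low unadjusted p-values were not particular to the members. The genes TLR2, TNIP3, CSF2 and TNF did not pass the filter on low counts.

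Among the receptors and adaptors, TNFRSF12A, the receptor of the cytokine TWEAK, stood at 223 ± 74.5 FPKM in APEX1-OE and 176 ± 40.6 FPKM in Ctrl (SD, n = 3 each). The TNF receptor TNFRSF1A stood at 169 ± 15.8 and 188 ± 27.9 FPKM, so that either was the higher depending on the group, and the kinase IRAK1 of the interleukin-1 pathway followed at 139 ± 37.5 and 132 ± 24.1 FPKM. TNFRSF12A had a log2 fold change of 0.36 (SE 0.352, edgeR adjusted p = 1.0) and, with the set of libraries as a term, 0.61 (edgeR adjusted p = 0.181). TLR4 and TLR3, sensors of bacterial and viral molecules, were near 1 FPKM or lower, with log2 fold changes of 0.73 and 0.38 and SE of 0.567 and 0.380. In the list of kinases, which holds the IkappaB kinase complex and the kinases and adaptors next to it but not IRAK1, the highest level was that of MAP3K14, also called NIK, which drives the cutting of p100, at 12.8 ± 2.33 FPKM in APEX1-OE and 11.1 ± 0.785 FPKM in Ctrl (SD, n = 3 each). TAB1 and IKBKG, the regulatory subunit of the kinase complex, stood close to it at 10.2 and 10.5 FPKM over all libraries. The catalytic kinases CHUK and TBK1 had log2 fold changes of 0.42 and 0.52 with SE of 0.373 and 0.453, which fell to 0.075 and 0.14 with the set as a term, and IKBKE was at -0.24 (SE 0.236). None of these kinases was called.

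The brakes outside the members were led by TNIP1, a partner of A20, at 102 FPKM over all libraries, RBCK1, a subunit of the linear ubiquitin ligase, at 74.3 FPKM, and BCL3, a nuclear IkappaB protein, at 53.0 FPKM. The ubiquitin ligase BIRC3 had the smallest unadjusted p of its list at 0.188 (log2 fold change 0.63, SE 0.440, edgeR adjusted p = 1.0), followed by ZC3H12A, an RNase that cuts inflammatory messages, at -0.29 (SE 0.223) and the deubiquitinase CYLD at 0.37 (SE 0.334). BIRC3 followed the sets of libraries, with 3.60, 10.21 and 11.05 FPKM in APEX1-OE and 3.44, 3.60 and 8.62 FPKM in Ctrl. In other words, it was low in the 3 libraries of the first set and high in the 3 of the second, as REL and TNFAIP3 were.

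The target genes did not share a direction. CXCL1, a chemokine for neutrophils, was the most abundant at 240.2 FPKM over all libraries, before TNFAIP2 at 198 and the survival gene BCL2L1 at 152. CXCL1 and CCL2, a chemokine for monocytes, had log2 fold changes of -0.26 and -0.33 (SE 0.173 and 0.196), and CCL5, a chemokine for T cells, had one of 0.48 (SE 0.318), and the edgeR adjusted p was 1.0 for each. CCL2 was lower in all 3 APEX1-OE libraries, at 13.33, 14.77 and 16.29 FPKM against 17.05, 18.39 and 19.85 FPKM in Ctrl (two-sided p = 0.1 by exact permutation). Of the 20 target genes with a mean of at least 1 FPKM, 3 showed no overlap between the groups, against 2.17% of all such genes. With the set as a term CCL5 had a log2 fold change of 0.70 (edgeR adjusted p = 0.0669), and with that offset as well it was 0.66 and the gene was called higher (edgeR adjusted p = 0.0156), in a fit that called 0.13% of all genes. IL1A had 9, 13 and 12 counts in APEX1-OE and 4, 2 and 7 counts in Ctrl, which is too few for a firm ratio. CCL5 and CCL2 thus stood on opposite sides of 0 in each of these fits.

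**Figure D5:**
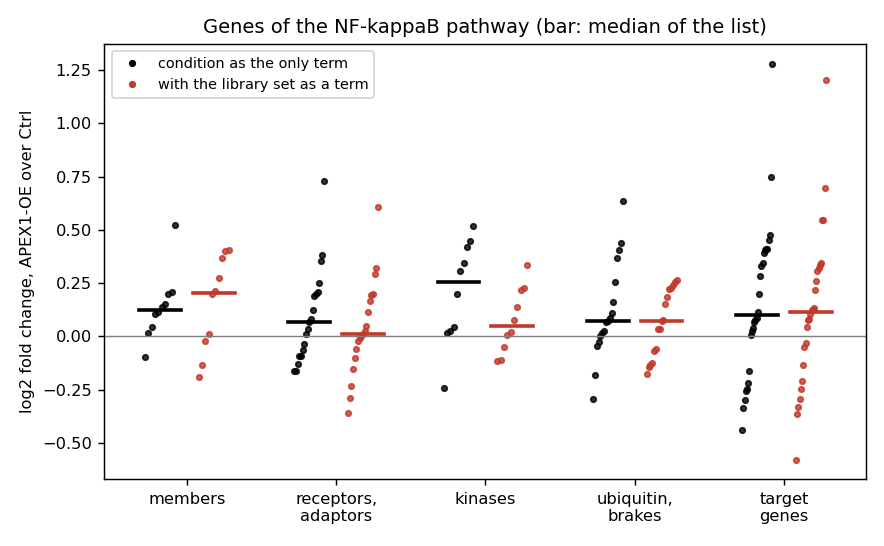
Log2 fold change in APEX1-OE over Ctrl for the members and for each list of the pathway, with the condition as the only term (black) and with the set of libraries as a term (red); each dot is a gene and each bar the median of its list. The medians of the lists lie between 0.067 and 0.25 with the condition as the only term, where 9 of 10 members and 9 of 10 kinases are above 0, and between 0.010 and 0.20 with the set as a term. The highest dot among the target genes is IL1A, which has 13 counts or fewer in every library.

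Of the thioredoxin system, which works with APEX1 to keep transcription factors reduced, TXN and the peroxiredoxin PRDX1 were among the most abundant transcripts at 469 and 505 FPKM over all libraries, with log2 fold changes of -0.027 and -0.13 (SE 0.194 and 0.171). TXNIP, which codes for the inhibitor of thioredoxin, stood at 9.33, 11.80 and 10.55 FPKM in APEX1-OE and at 7.70, 6.20 and 7.19 FPKM in Ctrl. It was higher in each APEX1-OE library than in any Ctrl library (two-sided p = 0.1 by exact permutation). Of the 7 genes of this list, 2 showed no overlap, TXNIP and APEX1 itself. Among the 11629 genes with a mean of at least 1 FPKM the share was 2.17%. Its log2 fold change was 0.57 (SE 0.198, unadjusted p = 0.0204, edgeR adjusted p = 1.0) and 0.59 with the set as a term (edgeR adjusted p = 0.131), and it was called with the offset for GC content and length beside the set (0.68, edgeR adjusted p = 0.0253) and with the set as a term without APEX1-OE replicate 3 (0.62, edgeR adjusted p = 0.000579). The fit with the offset called 0.13% of all genes. The fit without APEX1-OE replicate 3 called 16.6% of all genes and all 7 genes of this list, APEX1 included, 4 of them higher and 3 lower.

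The likeness between profiles was measured as the root mean square difference of log2 CPM over the 6 libraries, after each gene was centred on its mean. RELA and NFKB2 were each other's nearest member at 0.043, but IRAK1 lay nearer to RELA at 0.038. RELA was also the nearest member to RELB at 0.068. NFKBIB and NFKBIE were nearest to each other among the members at 0.068, and NFKB1 and NFKBIZ at 0.099. Pathway genes lay nearer to these 4 as well, RBCK1 to NFKBIB at 0.036, the cytokine gene LIF to NFKBIE at 0.064, the ubiquitin ligase subunit BTRC to NFKB1 at 0.073 and the deubiquitinase OTULIN to NFKBIZ at 0.057. BTRC was also nearer to TNFAIP3, at 0.116, than any member, whereas for NFKB2 and RELB the nearest pathway genes, TRAF2 at 0.052 and IRAK1 at 0.095, lay farther than RELA. REL stood farther from its nearest member, NFKBIZ, at 0.265, and was closest to the ubiquitin ligase BIRC2 among the pathway genes at 0.125. For NFKBIA the nearest pathway gene was the chemokine gene CXCL2 at 0.084. The median distance of a member to all tested genes lay between 0.312 for NFKBIA and 0.563 for REL.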

How the data were processed

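Per the labels and the methods of the study, stranded paired-end mRNA reads were trimmed by the authors (FASTX-Toolkit), TopHat2 placed them on GRCh38, and only uniquely mapped reads were kept. The deposited counts per gene are raw, and the authors also made the deposited FPKM, rounded to 2 decimals, for 31951 of the 32192 genes. For the counting tool, annotation and use of strand: not given in the sources used here. Subunits cut from a common precursor (p105 and p50, p100 and p52) share the counts of 1 gene.

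In R 4.3.3, edgeR 4.0.16 filtered genes by filterByExpr (at least 10 counts and a total of 15), scaled the libraries by TMM and fitted a robust quasi-likelihood model with the condition as the only term, with Benjamini-Hochberg adjustment over all genes at 0.05. Intervals are 95% t intervals from that fit. DESeq2 1.42.0 and limma 3.58.1 served as alternatives. The fit was tested on simulated data. FPKM were compared by exact permutation. Gene coordinates, GC content and transcript length came from GENCODE 44, which held 97.0% of the gene IDs, and promoter sequences from RefSeq on GRCh38.p14. The spline for GC content and length had 5 degrees of freedom each and covered 98.7% of the tested genes.

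The members and lists were chosen with earlier results of these data known. In each pathway list the genes named are those called, the 3 with the smallest unadjusted p and the 3 with the highest mean FPKM, and for each member the nearest member or pathway gene. BIRC2, BTRC, CXCL2, LIF, OTULIN and TRAF2 are named by likeness. No pair of libraries of a group agreed within sampling noise. Splicing events were not analysed here.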

Additional observations from a re-analysis of the deposited data

How the results depend on the processing

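With the condition as the only term, no alternative called a member. Of all 24 alternatives, 23 called none. The exception was the set of libraries as a term without APEX1-OE replicate 3, which called 4 of 10 members and 25 of 73 pathway genes (34.2%), beside 16.6% of all genes. With a library left out, the numbers thus ran from 0 to 4 members and from 0 to 25 pathway genes. The offset for GC content and length with the set called 1 pathway gene, CCL5. No member kept overlap-free groups in TMM-normalized CPM (0) or rescaled FPKM (0), and with a library left out of the FPKM comparison the number was 1 to 2, beside 3.55% to 23.2% of all genes without overlap. The cause was not tested. The log2 fold change of APEX1 stayed between 2.36 and 2.51 with a library left out, but in the fit on the condition alone its call was lost without APEX1-OE replicate 2 or 3 or Ctrl replicate 1 or 2 (adjusted p from edgeR 0.118, 0.0674, 0.210 and 0.207).

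Of 238 pairs of a member and an alternative, 199 kept the sign and the side of the threshold and 35 changed sign, all of them with a library left out or with the set as a term. With a library left out, with or without the set as a term, log2 fold changes ran from -0.21 to 0.50 for RELA, -0.22 to 0.61 for RELB, -0.28 to 0.20 for NFKB1, -0.15 to 0.56 for NFKB2, -0.21 to 0.016 for NFKBIA, -0.14 to 0.37 for NFKBIB, -0.24 to 0.36 for NFKBIE, -0.22 to 0.34 for NFKBIZ and -0.026 to 0.27 for TNFAIP3. REL kept its sign, from 0.32 to 0.93 on the condition alone and from 0.16 to 0.23 with the set. Leaving out APEX1-OE replicate 1 alone turned RELA, RELB, NFKB2, NFKBIB and NFKBIE negative. With the set as a term NFKB1 was at -0.19 and NFKBIZ at -0.13, and with the offset as well at -0.15 and -0.048. The set as a term with a library left out and the offset were chosen after seeing the data. The set itself was found in the same counts.

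The deviations of libraries with the same replicate number correlated at 0.607, -0.521 and 0.700 across genes for replicates 1, 2 and 3. Only for replicate 3 was the Ctrl library with the highest correlation the one of the same number. Both libraries of replicate 1 fell in the first set and both of replicate 3 in the second, while replicate 2 was split. These values therefore cannot show whether the samples were paired. Blocking on replicate number, edgeR called 0 members and 0 pathway genes, the median of the members was 0.10, APEX1 was at 2.43 and REL at 0.54 (unadjusted p = 0.0417, adjusted p = 1.0).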
